A study of Homo sapiens with 12 samples.

Results

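The response of the drug-resistant leukaemia line K562/ADR (KA) to decitabine was taken from 6 of the 12 arrays of the series: 3 of KA given 5 nM decitabine for 72 hours and 3 of untreated KA. Every gene measured was a member, without selection on its values, so 18417 of 18417 genes were described. KA descends from K562, a long-used culture line of chronic myeloid leukaemia, and its medium carried 50 nM adriamycin (doxorubicin) to maintain resistance. Both KA groups share that selection, their RPMI medium with calf serum and Trizol extraction of total RNA, and the remaining 6 arrays hold the sensitive parent K562 (KS) without and with the same decitabine treatment. The labels do not give what the untreated cells received, or whether adriamycin was left in the medium during the 72 hours. Whether the replicates were separate cultures is not stated either, and each p-value therefore reflects the spread among these arrays alone, which may be technical. The number of arrays limits the precision. The series was made to study decitabine as an agent against P-glycoprotein-driven multidrug resistance, and the comparison of treated with untreated KA asks which transcripts moved with the drug in resistant cells.

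Decitabine is a deoxycytidine analogue. Once phosphorylated it is built into new DNA, where DNA methyltransferases are trapped on it and broken down, so that copied DNA loses methyl groups over successive divisions. Genes of germ cells are a well known group kept silent by promoter methylation in body cells, and K562 cells are known for a mixed erythroid and megakaryocytic character. P-glycoprotein, the product of ABCB1, is a membrane pump that exports anthracyclines.

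Values were log2 intensities, so a difference of 1 is a doubling. A group mean at or under 3.39, the highest lower quartile among the arrays, was treated as background, and a fold change against such a mean is given as "at least". A log2 change printed for such a gene is the fitted value and no bound, and the same holds for differences between the lines that use such a mean. Array medians lay between 4.96 and 5.01, and the 3 arrays of each KA group correlated with one another at 0.992 to 0.995 across transcript clusters. No KA array stood apart by this measure. Measured along the change to the treated mean, from the mean of the other untreated arrays, the untreated KA arrays lay 4.51%, 14.5% and 24.7% of the way and the untreated KS arrays -7%, -4.99% and 34.8%, in replicate order. Results that use KS are given with and without the third untreated KS array. The identity of the line was borne out by its markers: the embryonic globin genes HBE1 and HBZ read 12.72 and 11.66 in untreated KA, the erythroid factor GATA1 8.90, and ABCB1 was at least 227-fold higher in untreated KA than in untreated KS, where it lay at background.

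The promoters of the 3 genes with the largest rises are shown first, because CG pairs are where DNA methyl groups sit. Each is the 250 bases before the gene's start, taken from RefSeq (GRCh38.p14), written 5′ to 3′ on the gene's own strand, with every CG pair in capitals. MAEL lies at chr1:166975332-166975581 on the plus strand, GCNA at chrX:71578187-71578436 on the plus strand and TKTL1 at chrX:154295545-154295794 on the plus strand.
MAEL: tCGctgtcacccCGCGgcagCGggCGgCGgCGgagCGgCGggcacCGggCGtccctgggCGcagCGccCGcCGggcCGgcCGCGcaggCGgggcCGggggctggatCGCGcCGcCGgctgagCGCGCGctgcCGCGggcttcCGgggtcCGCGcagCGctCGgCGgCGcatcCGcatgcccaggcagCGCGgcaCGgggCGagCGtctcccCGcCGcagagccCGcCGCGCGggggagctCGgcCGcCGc
GCNA: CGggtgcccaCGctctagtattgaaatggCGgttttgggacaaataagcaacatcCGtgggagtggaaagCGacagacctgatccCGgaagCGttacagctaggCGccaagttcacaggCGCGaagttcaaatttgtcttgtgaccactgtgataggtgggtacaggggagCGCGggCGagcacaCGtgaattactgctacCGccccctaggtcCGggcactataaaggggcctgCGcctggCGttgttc
TKTL1: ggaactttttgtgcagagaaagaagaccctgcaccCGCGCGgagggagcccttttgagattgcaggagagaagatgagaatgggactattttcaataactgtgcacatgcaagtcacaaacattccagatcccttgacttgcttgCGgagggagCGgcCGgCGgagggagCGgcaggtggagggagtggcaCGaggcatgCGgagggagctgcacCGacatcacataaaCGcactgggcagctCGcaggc
The MAEL window holds 51 CG pairs, the GCNA window 18 and the TKTL1 window 13, so the 3 largest rises came from promoters that differ widely in CG content. A further pair of promoters stands for gene groups described later, the largest called change among endoplasmic reticulum genes (ERO1B, chr1:236281959-236282208, minus strand) and the largest fall among histone genes (H1-5, chr6:27867589-27867838, minus strand). In ERO1B the capitals mark CCAAT and CCACG on either strand, and in H1-5 they mark CCAAT and TATAA on either strand.
ERO1B: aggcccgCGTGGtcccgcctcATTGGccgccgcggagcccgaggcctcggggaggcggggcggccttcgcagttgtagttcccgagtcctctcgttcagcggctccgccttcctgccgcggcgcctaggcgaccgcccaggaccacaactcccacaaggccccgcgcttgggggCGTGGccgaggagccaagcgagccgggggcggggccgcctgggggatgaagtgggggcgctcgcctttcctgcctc
H1-5: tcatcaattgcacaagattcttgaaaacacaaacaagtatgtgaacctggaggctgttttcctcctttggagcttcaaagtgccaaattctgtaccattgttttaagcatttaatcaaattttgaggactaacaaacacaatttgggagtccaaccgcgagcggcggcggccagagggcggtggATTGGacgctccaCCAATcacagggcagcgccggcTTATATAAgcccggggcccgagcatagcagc
In ERO1B the first of 2 CCACG matches, read as cgtgg on the printed strand, and the CCAAT match, read as attgg, stand 9 bases apart, the spacing of the endoplasmic reticulum stress element. In H1-5 there are 2 CCAAT matches and 2 overlapping TATAA matches. None of these matches was tested as a functional site.

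Decitabine raised 1780 genes in KA and lowered 914 at an adjusted p under 0.05 in limma (Benjamini-Hochberg over all 18417 genes), which is 9.66% and 4.96% of the genes tested. These shares are the background for every count of list members called in KA below. Most changes were small. The median rise among raised genes was 0.41 and the median fall among lowered genes -0.35, with 1165 of the raised and 780 of the lowered genes changed by less than 0.5. Larger changes ran almost entirely upwards: 86 genes (0.467%) rose by at least 1 and 5 (0.0271%) fell by at least 1, and all 5 were histone genes. The 3 treated arrays lay above the 3 untreated arrays for 3593 genes (19.5%) and below them for 3026 (16.4%), and this separation held for 1770 of the raised and 910 of the lowered genes. Raised genes made up 66.1% of all calls, but the share depended on scaling: it was 54.8% after quantile normalization and 48.5% after centring each array on its median. Centring put the median change of all genes at -0.07 in place of -0.02. Leaving out untreated replicate 1 gave 1133 raised genes and leaving out treated replicate 3 gave 1174, and the lowered count fell to between 479 and 580 whichever of the 6 arrays was left out.

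**Figure D1:**
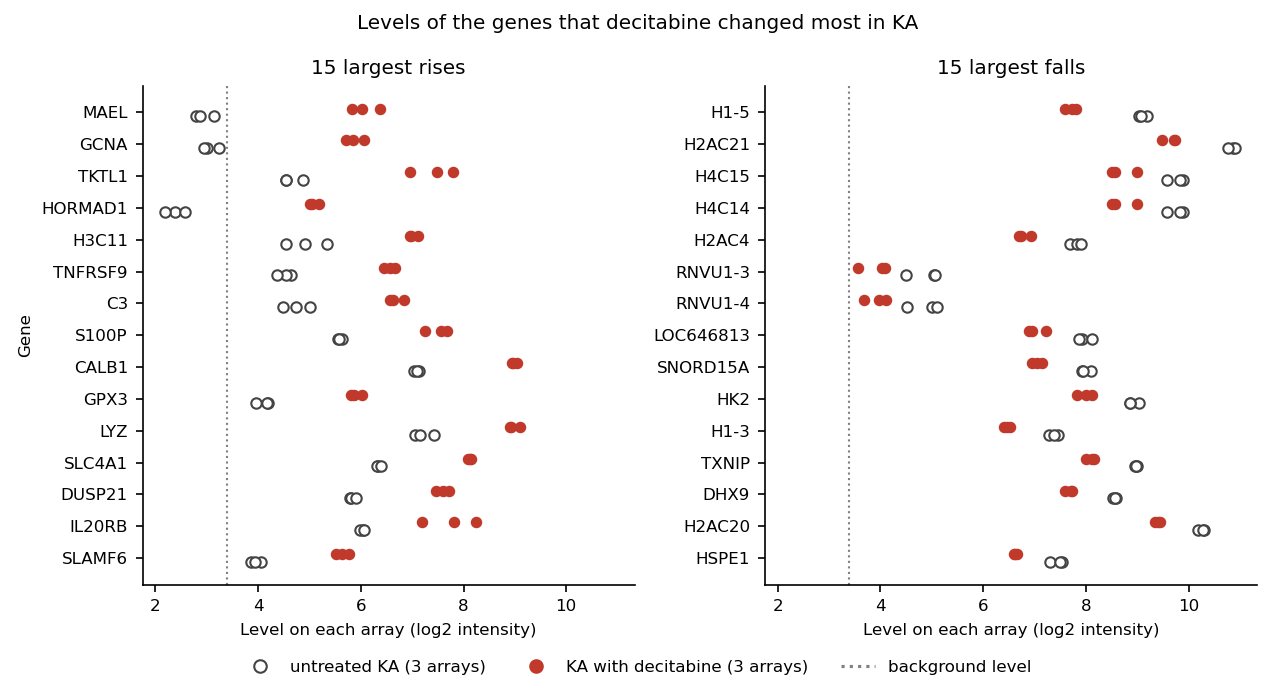
Log2 intensity on each of the 6 KA arrays (horizontal axis) for the 15 genes with the largest rises and the 15 with the largest falls (vertical axis), untreated arrays open and decitabine arrays filled, with the background level of 3.39 dotted. In every gene shown the treated and untreated arrays do not overlap; MAEL, GCNA and HORMAD1 start under the background level, and the falling genes other than RNVU1-3 and RNVU1-4 start above 7.

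Germ cell genes led the rises. MAEL, which restrains transposons in germ cells, read 3.14, 2.78 and 2.88 on the untreated arrays and 5.83, 6.03 and 6.37 on the treated arrays. The untreated values were all background and the treated values all well above it, an increase of at least 6.41-fold (3.14 ± 0.27, change ± SE, limma adjusted p = 4.63e-05). GCNA, a germ cell nuclear acidic protein, went from 3.24, 3.0 and 2.95 to 6.06, 5.84 and 5.71, at least 5.57-fold (2.81 ± 0.35, adjusted p = 0.000398). HORMAD1, a protein of meiotic chromosome axes, went from 2.38, 2.57 and 2.18 to 5.01, 5.18 and 5.05, at least 3.22-fold (adjusted p = 0.00119). The lowest treated array lay above the background level by 2.43 in MAEL, 2.32 in GCNA and 1.61 in HORMAD1. DAZL, an RNA-binding protein of germ cells, was already above background, at 4.96, 4.95 and 5.13, and reached 6.56, 6.39 and 6.29 (1.40 ± 0.21, adjusted p = 0.00116). SYCP3, a lateral element protein of the synaptonemal complex, rose from background by 0.89 ± 0.12 (at least 1.28-fold), and DPEP3, a testis membrane peptidase, by 0.81 ± 0.15.

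Of the 44 measured meiosis and germline genes 15 rose and 2 fell, with a median change of 0.19 against -0.02 over all genes. With group means under background raised to that level the median was 0.0041. Their spread was wide: 29 lay at or under background in untreated KA, 10 of those came above it with decitabine, and 19 stayed at or under background in both groups. A rise was called for 10 of the 29. The risers came from several steps of germ cell development. The piRNA pathway gave MAEL, TDRD9 (at least 1.23-fold), TDRD12 (at least 1.35-fold) and PIWIL2 (at least 1.46-fold), a PIWI protein whose call was lost without untreated replicate 1 (adjusted p = 0.0539). Meiotic cohesin gave STAG3 (0.72 ± 0.13) and RAD21L1 (0.54 ± 0.15), the latter not called without treated replicates 2 and 3 or untreated replicates 1 and 3 (adjusted p up to 0.117). The same pathways held genes that fell or were not called. PIWIL4 fell by 0.44 and TEX15 by 0.44 on the log2 scale, and the values of SYCP1 (1.68 untreated, 1.58 treated), DDX4 (2.57, 2.45) and TDRD1 (2.16, 2.19) lay under the background level in both groups.

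Of 34 measured tumour-testis antigens 7 rose and none fell, with a median of 0.088 that became 0 with means raised to the background level. Median centring called 2 of them lowered. TKTL1, a transketolase relative expressed in testis and tumours, read 4.87, 4.54 and 4.54 untreated and 7.80, 7.48 and 6.95 treated, 6.79-fold (2.76 ± 0.43, adjusted p = 0.00122). Its treated arrays spread widely, but the lowest of them lay 2.09 above the highest untreated array. ODF2L, a centriolar protein, rose by 0.88 ± 0.15 and SSX3, a member of the SSX family, by 0.79 ± 0.15. Of the best known members that were not called, SSX1 read 10.63 and 10.62, PRAME 10.31 and 10.19, and MAGEA1 7.73 and 7.39 without and with decitabine. SSX and MAGE genes have close sequence relatives, and the copy that gave a signal is uncertain.

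Across all genes, the chance of a call followed the level of a gene, which was taken from untreated KS because those arrays do not enter the KA difference. They do enter the spread shared by the 4 groups, on which each call rests. In the lowest quartile 3.71% of genes rose and 1.26% fell, in the second 7.69% and 1.93%, in the third 15.3% and 4.26%, and in the highest 12% and 12.4%. Large rises lay lower: of the 86 genes raised by at least 1, 28 lay in the lowest quartile, 36 in the second, 17 in the third and 5 in the highest, and all 5 large falls lay in the highest. With the level taken from all 6 KS arrays, treated ones included, the large rises numbered 13, 34, 27 and 12 from the lowest quartile to the highest, and the large falls 1 in the third and 4 in the highest. Promoter CG content gave a similar split between the many small and the few large rises among the 14237 genes with a RefSeq promoter window, here 250 bases before to 50 after the start. Genes with 20 or more CG pairs rose in 11.5% of cases and fell in 6.37%, against 6.04% and 1.68% of those with 5 or fewer. Rises of at least 1, however, made up 0.84% of the genes with 5 or fewer CG pairs and 0.292% of those with 20 or more. The median was 23 CG pairs over all genes, 25 over raised genes, 26 over lowered genes and 10.5 over the 64 genes raised by at least 1 that have a window. The germline list stood on the CG-rich side with a median of 26. Level and CG content were not tested separately.

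**Figure D2:**
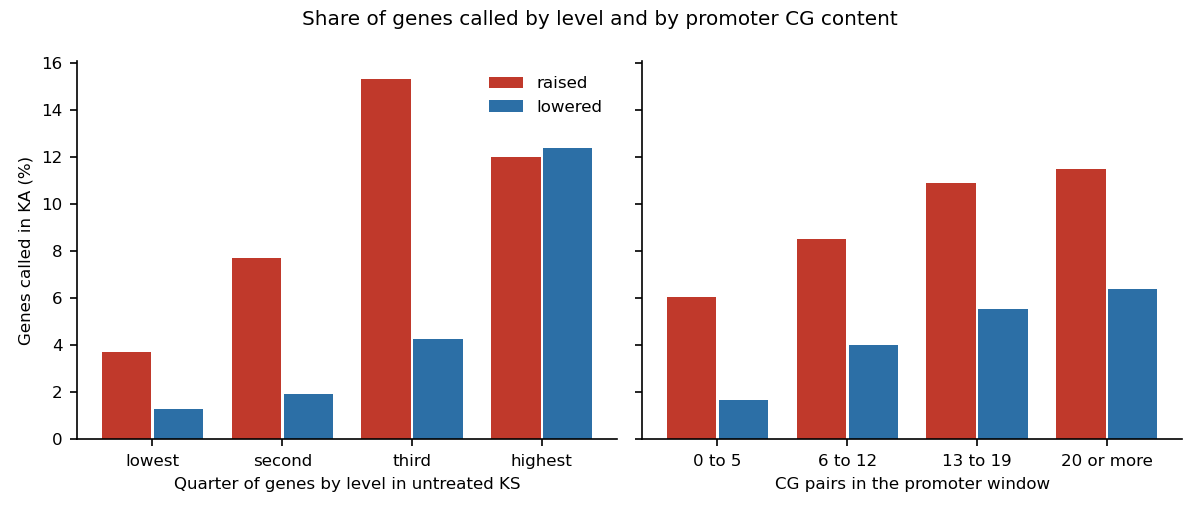
Share of genes raised or lowered in KA (percent, vertical axis) by quartile of the level in untreated KS (left) and by the number of CG pairs in the promoter window (right). The share of lowered genes climbs from 1.26% to 12.4% over the quartiles and from 1.68% to 6.37% with CG content, while the raised share is highest in the third quartile at 15.3%.

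Genes of mitosis changed by small amounts and in 1 direction. Of 63 measured, 33 rose and none fell, with a median change of 0.26 against -0.02 over all genes. No member of the list exceeded a change of 0.65, reached by CDC25C, a phosphatase that activates the mitotic cyclin kinase, at 6.96, 7.12 and 7.08 untreated and 7.84, 7.72 and 7.56 treated (adjusted p = 0.00102). CDC25B, a phosphatase of the same family, read 7.01, 6.98 and 7.18 and then 7.67, 7.62 and 7.64 (0.58 ± 0.076). Polo-like kinase 1 (PLK1) read 10.23, 10.42 and 10.29 and then 10.84, 10.80 and 10.69 (0.46 ± 0.073, adjusted p = 0.00145). In these 3 genes all treated arrays lay above all untreated ones, with gaps of 0.44, 0.44 and 0.26. Also raised were the mitotic cyclin CCNB2 (0.49 ± 0.075), the microtubule-associated CKAP2L (0.48 ± 0.069) and DEPDC1 (0.50 ± 0.13), the last not called without treated replicate 1 or untreated replicate 1 (adjusted p up to 0.0779). The mitotic kinase CDK1 (0.23 ± 0.089, adjusted p = 0.104) and the proliferation marker MKI67 (0.11 ± 0.076, adjusted p = 0.406) did not pass. The count fell to 22 with median centring, to 20 with the replicate block, to 19 without treated replicate 1, and to 20 and 21 without untreated replicates 1 and 2. In the promoter windows of this list, CCAAT was found in 77.8% and TTTGAA, the letters of the cell cycle homology region, in 68.5%, against 36.3% and 11.9% of all windows. Over all genes with a window, those with TTTGAA were raised in 8.73% of cases and those without it in 10.3%.

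Genes of DNA replication moved in both directions. Of 58 measured, 4 rose and 7 fell, with a median of -0.03, and those that fell included PCNA and TYMS. PCNA, the sliding clamp of DNA polymerases, read 8.28, 8.35 and 8.52 untreated and 8.03, 7.86 and 7.83 treated (-0.48 ± 0.085, adjusted p = 0.00295). TYMS, which makes thymidylate, read 9.73, 9.76 and 9.78 and then 9.34, 9.31 and 9.32 (-0.44 ± 0.064, adjusted p = 0.000902). The groups did not overlap in either gene. POLD3, a subunit of DNA polymerase delta, fell by 0.54 on the log2 scale, whereas the licensing factor CDT1 rose by 0.45 ± 0.067. MCM2, a helicase subunit (8.54 untreated, 8.54 treated), and RRM2, a ribonucleotide reductase subunit (8.07, 7.90), were not called. Of 52 repair and checkpoint genes 6 rose and 4 fell, shares of 11.5% and 7.69% that lie near those of all genes, and with a median of 0.0006 that turned to -0.05 under median centring. The checkpoint kinase ATM rose by 0.48 ± 0.091, and the uracil glycosylase UNG and the DNA break sensor PARP1 fell by 0.59 and 0.46 on the log2 scale. The count of lowered replication genes was 3 without treated replicate 3 or untreated replicates 2 or 3 and 4 without treated replicate 2 or untreated replicate 1. The raised count was 1 without treated replicate 1 or untreated replicates 1 or 2 and 2 without treated replicate 2 or under median centring. In the repair list 3 rose without untreated replicates 1 or 2, and 2 fell without treated replicate 3 or untreated replicate 3.

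Replication-dependent histone genes, whose messages are made in S phase, held the 5 falls of at least 1. Of 57 measured, 30 fell and 4 rose, with a median of -0.43. The linker histone gene H1-5 read 9.03, 9.20 and 9.08 untreated and 7.72, 7.80 and 7.59 treated, 2.64-fold lower (-1.40 ± 0.22, adjusted p = 0.00134). H2AC21 read 10.86, 10.90 and 10.78 and then 9.73, 9.71 and 9.48 (-1.2 ± 0.24, adjusted p = 0.00583). The lowest untreated array lay above the highest treated array by 1.23 in H1-5 and 1.04 in H2AC21. H4C14 and H4C15 share one set of values, 9.89, 9.84 and 9.58 untreated and 8.57, 8.51 and 9.0 treated, and together with H2AC4 (-1.01 ± 0.16) complete the 5 genes that fell by at least 1. All 5 classes of histone held falling members: 4 of 6 H1 genes, 9 of 14 H2A, 9 of 16 H2B, 4 of 8 H3 and 4 of 13 H4.

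The direction within the histone genes went with how bright a gene was in KS. Of 33 genes above 8 in untreated KS 24 fell and none rose (median -0.56), and of 8 genes between 6 and 8, 5 fell. Of the 16 at or under 6, 1 fell and 4 rose. The largest of these rises was H3C11, at 4.55, 5.35 and 4.91 untreated and 6.98, 7.11 and 6.95 treated (2.08 ± 0.23, adjusted p = 0.000205). H2AC14 was called raised at values of 2.29, 1.79 and 2.48 untreated and 3.54, 3.44 and 3.21 treated, so its treated mean just reached the background level. The testis linker histone H1-6 rose by 0.85 ± 0.13 and H1-1 by 0.71 ± 0.13. SLBP, which binds the stem-loop of histone messages (9.15 untreated, 9.09 treated), and NPAT, the activator of histone gene loci (8.27, 8.37), were not called, and among variant histones H1-10 fell by 0.59 and MACROH2A1 by 0.30 on the log2 scale. Because the clustered histone genes resemble one another closely in sequence, the member that gave a signal is uncertain. Without treated replicate 2 the count of lowered histone genes was 19. CCAAT was found in 84.6% of histone promoter windows and TATAA in 90.4%, against 36.3% and 16% of all windows. Over all genes with a window, those with TATAA were lowered in 4.84% of cases and those without it in 5.19%. For CCAAT these shares were 5.13% and 5.14%.

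**Figure D3:**
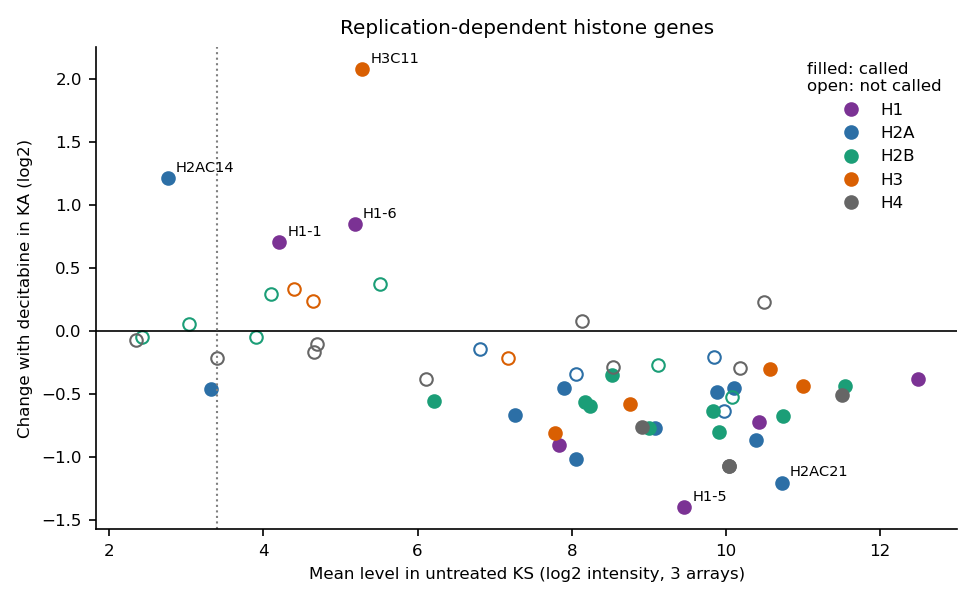
Change with decitabine in KA (log2, vertical axis) of 57 replication-dependent histone genes against their mean level in 3 untreated KS arrays (log2 intensity, horizontal axis), coloured by histone class, filled where called, with the background level of 3.39 dotted. Of the 33 genes to the right of 8 none is raised, and the 4 raised genes, which are named, lie at or under 6.

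In the endoplasmic reticulum the called genes rose. Of 45 measured chaperones and genes of the unfolded protein response, which restores folding capacity in that compartment, 25 rose and none fell, with a median of 0.27. ERO1B, an oxidase that drives disulphide bond formation, read 3.44, 3.89 and 3.6 untreated and 4.69, 4.84 and 4.98 treated (1.19 ± 0.11, adjusted p = 6.33e-05). SEL1L, part of the machinery that exports misfolded proteins for degradation, read 7.05, 7.02 and 7.23 and then 7.79, 7.92 and 8.06 (0.82 ± 0.091, adjusted p = 0.000198). HSPA5, the main chaperone of the compartment (BiP), read 10.61, 10.79 and 10.81 and then 11.19, 11.21 and 11.49 (0.57 ± 0.10, adjusted p = 0.00353). The groups did not overlap in any of the 3, and in each the third treated array was the highest. PDIA4, a disulphide isomerase (0.76 ± 0.088), the co-chaperones SDF2L1 (0.71 ± 0.081), DNAJB11 (0.68 ± 0.12) and DNAJB9 (0.65 ± 0.089), and the chaperone HYOU1 (0.66 ± 0.10) rose too. The sensor kinase EIF2AK3 (PERK) rose by 0.37 ± 0.07, and XBP1, a transcription factor of the response, by 0.28 ± 0.08 (adjusted p = 0.0343), a call lost under median centring and without treated replicates 2 and 3 or untreated replicates 2 and 3 (adjusted p up to 0.119). The count was 20 under median centring and 19 to 23 with single arrays left out.

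The promoter element of this response was rare and its genes moved largely one way. Of 14237 promoter windows, 17 held the full endoplasmic reticulum stress element (CCAAT and CCACG 9 bases apart, on either strand), and 10 of these 17 genes rose in KA and none fell, 58.8% against 10% of the genes whose window lacks it. Of the 10 genes, 6 belong to the list above: ERO1B, HSPA5, XBP1, the chaperone HSP90B1 (0.53 ± 0.06), the calcium-binding chaperone CALR (0.50 ± 0.069) and CRELD2 (0.45 ± 0.086). The other 4 were not chosen for the list. These were TRIM5, an antiviral restriction factor (0.93 ± 0.094), FICD, an enzyme that modifies HSPA5 (0.65 ± 0.10), ALG12, a mannosyltransferase of glycosylation in the endoplasmic reticulum (0.45 ± 0.071), and TMEM120A (0.29 ± 0.081), whose call was lost under quantile normalization, median centring and every omission of 1 array (adjusted p up to 0.107). The count was 8 to 10 under the other settings, and none of the 17 fell under any of them. These letters were searched with earlier results of the same arrays known. The chaperone CANX, also in the list and with the element, read -0.029 ± 0.059 and was not called. Genes with CCAAT anywhere in the window were raised in 11.1% of cases and those without it in 9.51%.

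Another stress branch, run by the transcription factor ATF4 when translation or amino acid supply is impaired, rose in part. Of 25 measured ATF4 effectors 9 rose and 1 fell, with a median of 0.20. ATF5, itself a stress transcription factor, read 6.28, 6.23 and 6.11 untreated and 7.58, 7.83 and 7.86 treated, 2.93-fold (1.55 ± 0.10, adjusted p = 1.1e-05). DDIT3, the proapoptotic factor CHOP, read 8.13, 8.51 and 8.52 and then 9.33, 9.35 and 9.52 (1.01 ± 0.12, adjusted p = 0.000258). INHBE, an inhibin subunit, read 6.60, 6.55 and 6.66 and then 7.18, 7.52 and 7.70 (0.87 ± 0.12). All treated arrays exceeded all untreated ones in the 3 genes, by 1.30 or more in ATF5. NUPR1, a stress-induced nuclear protein, rose by 0.98 ± 0.18, and ULBP1, a ligand of a natural killer cell receptor, by 0.70 ± 0.10. ATF4 itself was read by 2 transcript clusters that went opposite ways, the brighter at 0.22 ± 0.10 (adjusted p = 0.174) and the other at -0.27 (adjusted p = 0.228), and it was not called. TRIB3, a pseudokinase (0.16 ± 0.10), and CHAC1, which degrades glutathione (-0.022 ± 0.10), were not called either, and DDIT4, an inhibitor of mTOR, fell by 0.60 on the log2 scale.

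Enzymes of serine and one-carbon metabolism moved in both directions, 4 up and 1 down of 17, with a median of 0.032 that became -0.02 under median centring. The mitochondrial folate dehydrogenase ALDH1L2 read 7.56, 7.54 and 7.60 untreated and 8.39, 8.47 and 8.45 treated (0.87 ± 0.06, adjusted p = 1.23e-05). PHGDH, which starts serine synthesis, read 8.24, 8.17 and 8.31 and then 8.85, 9.0 and 9.03 (0.72 ± 0.077, adjusted p = 0.000161). The groups were far apart in both. CTH, which makes cysteine, rose by 0.42 ± 0.087, and the cytosolic folate enzyme MTHFD1 fell by 0.44 on the log2 scale. Of 18 amino acid transporters 7 rose and 1 fell (median 0.069), led by SLC7A8 (0.67 ± 0.10) and the glycine carrier SLC6A9 (0.57 ± 0.089), with SLC38A5 falling by 0.64 on the log2 scale. The raised count was 4 without treated replicate 3. Of 19 cytosolic tRNA synthetases 3 rose and 2 fell (median 0.12). WARS1, the synthetase for tryptophan, rose by 0.50 ± 0.08 and CARS1, for cysteine, by 0.40 ± 0.083, while VARS1, for valine, fell by 0.36 on the log2 scale. The lowered count was 1 without any 1 array other than untreated replicate 2.

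In glycolysis nearly all called genes fell. Of 21 measured genes 12 fell and 1 rose, with a median of -0.25. Hexokinase 2 (HK2), the entry enzyme, read 9.03, 8.87 and 8.86 untreated and 8.12, 8.0 and 7.82 treated (-0.94 ± 0.19, adjusted p = 0.00552). Pyruvate kinase (PKM), the last enzyme of the pathway, read 9.83, 9.84 and 9.81 and then 9.25, 9.18 and 9.18 (-0.62 ± 0.078, adjusted p = 0.000396). PGK1, phosphoglycerate kinase, read 11.36, 11.27 and 11.37 and then 10.82, 10.78 and 10.71 (-0.56 ± 0.076, adjusted p = 0.00061). The groups did not overlap, and the gap between them was 0.74, 0.56 and 0.45. PFKFB4, a bifunctional kinase that sets the flux through phosphofructokinase, fell by 0.65 on the log2 scale, and lactate dehydrogenase A (LDHA) by 0.39, a call lost without treated replicates 2 and 3 or untreated replicates 2 and 3 (adjusted p up to 0.079). The exception was the neuronal enolase ENO2, which rose by 0.43 ± 0.10, a call lost without treated replicate 3 (adjusted p = 0.0514). GAPDH (12.53 untreated, 12.42 treated) was not called. The count was 6 without treated replicate 2 and without treated replicate 3, and 8 when any other single array was left out.

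Genes of the hypoxia response, which share targets with glycolysis, were split between 3 raised and 5 lowered of 26 (median -0.13). EGLN3, an oxygen-sensing prolyl hydroxylase, read 8.16, 8.27 and 8.32 untreated and 7.50, 7.51 and 7.35 treated (-0.80 ± 0.073, adjusted p = 5.45e-05), with no overlap. EPAS1, the hypoxia factor HIF-2 alpha, moved the other way by 0.78 ± 0.081 (adjusted p = 0.000122), and VEGFA was not called (-0.10 ± 0.078). The raised share, 11.5%, lies near that of all genes. The lowered count was 9 after quantile normalization, 2 without treated replicate 3 and 3 without treated replicate 2 or any 1 untreated array, and the raised count was 1 without treated replicates 2 or 3 or untreated replicates 1 or 2. TXNIP, an inhibitor of thioredoxin and of glucose uptake, was among the 15 largest falls, from 9.0, 8.95 and 8.98 to 8.16, 8.0 and 8.13 (-0.88 ± 0.064, adjusted p = 1.76e-05). Of 20 cholesterol synthesis genes 2 rose and 4 fell, 7 after quantile normalization (median -0.12), with MSMO1, a sterol oxidase, having dropped by 0.57 on the log2 scale. Any 1 array left out gave 1 raised cholesterol gene.

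Cytosolic and mitochondrial chaperones fell where they were called. Of 19 heat shock and proteostasis genes 9 fell and 1 rose, with a median of -0.25. The mitochondrial co-chaperonin HSPE1 read 7.31, 7.53 and 7.50 untreated and 6.59, 6.66 and 6.63 treated (-0.82 ± 0.076, adjusted p = 5.83e-05), and its partner HSPD1 read 9.92, 9.85 and 9.85 and then 9.36, 9.31 and 9.38 (-0.52 ± 0.078, adjusted p = 0.00105). Neither gene showed overlap. The nucleotide exchange factor HSPH1 fell by 0.61 and the inducible HSP90 gene HSP90AA1 by 0.39 on the log2 scale. The 1 riser was SERPINH1 (0.35 ± 0.072), a collagen chaperone that works inside the endoplasmic reticulum. The count was 5 without treated replicate 2. Smaller falls were found for 6 of 33 proteasome subunits (median -0.16), led by PSMD1 (-0.51 ± 0.086), and for 9 of 80 subunits of oxidative phosphorylation (median -0.07), led by NDUFA9 (-0.40 ± 0.085). The proteasome count was 3 without treated replicates 1 or 2 or untreated replicate 1. The oxidative phosphorylation count was 3 without treated replicate 3, 4 without untreated replicates 2 or 3 and 5 without treated replicate 2 or untreated replicate 1. Of 62 cytosolic ribosomal proteins 1 rose and 1 fell, and their median of -0.0076 turned positive (0.0032) under quantile normalization. Median centring called none raised and 6 lowered, and a variance trend 5 lowered. The rise was not called with any array but untreated replicate 2 left out, and the fall not without treated replicates 1 or 3 or untreated replicates 2 or 3.

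**Figure D4:**
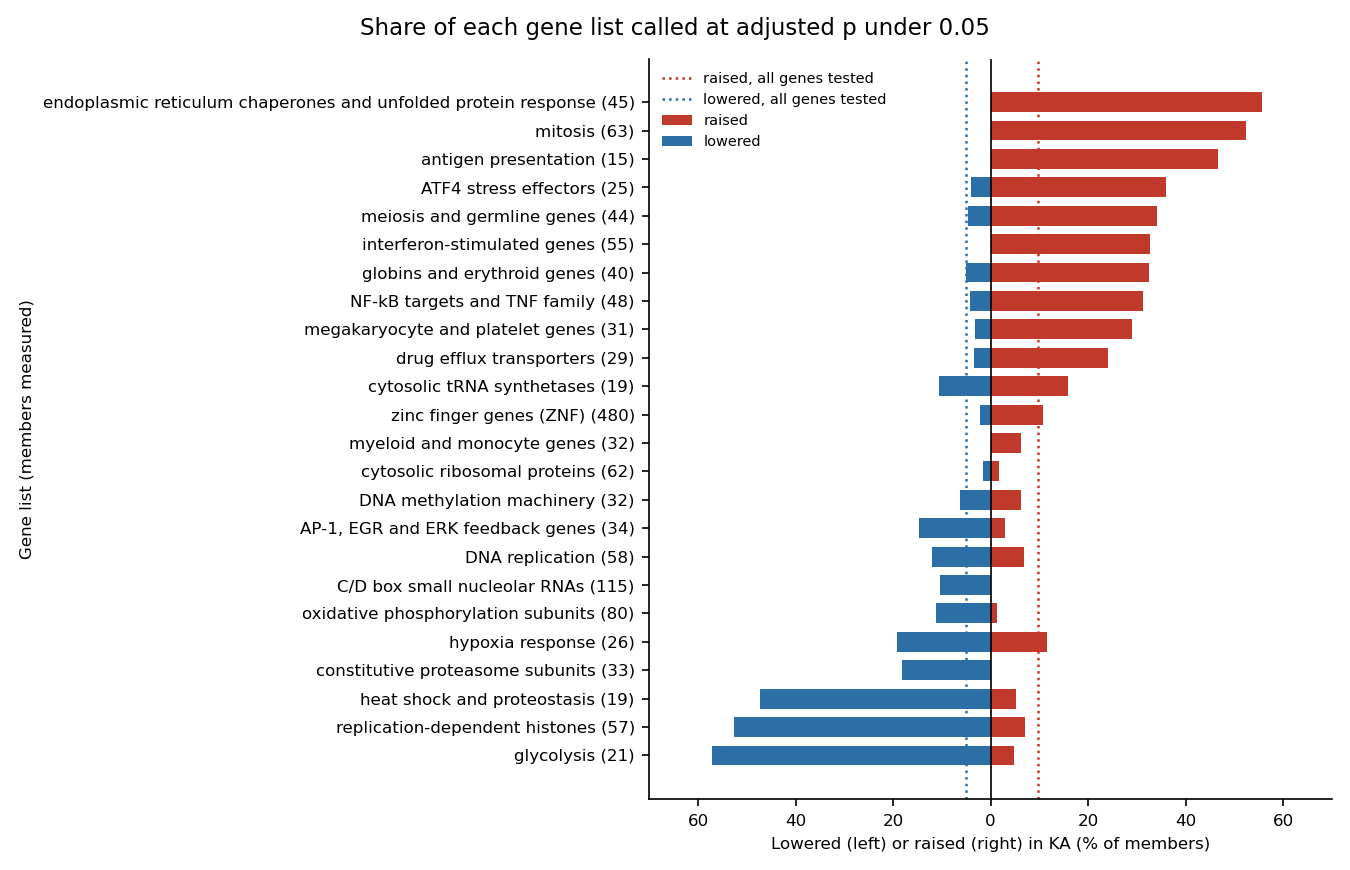
Percent of the members of each of 24 gene lists that decitabine raised (right) or lowered (left) in KA, with the number of members measured in brackets and dotted lines at the 9.66% raised and 4.96% lowered among all genes tested. Endoplasmic reticulum genes and mitosis reach furthest to the right, and glycolysis, histones and heat shock genes furthest to the left.

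Immune genes moved upwards. Of 55 interferon-stimulated genes 18 rose and none fell (median 0.11), and of 15 antigen presentation genes 7 rose and none fell (median 0.23). The interferon list's median was 0.00042 with means raised to the background level, and quantile normalization called 1 interferon-stimulated and 2 antigen presentation genes lowered. SAMD9, an antiviral factor, read 3.31, 3.50 and 3.34 untreated and 4.41, 4.46 and 4.42 treated, at least 2.05-fold from background (adjusted p = 0.000294). DTX3L, a ubiquitin ligase, read 4.37, 4.37 and 4.35 and then 5.24, 5.11 and 5.23 (0.83 ± 0.064, adjusted p = 2.37e-05). The groups did not overlap, and the gap in DTX3L was 0.73. DDX60L, a helicase (0.91 ± 0.10), LGALS3BP, a secreted glycoprotein (0.91 ± 0.18), and the signalling factors IRF1 (0.65 ± 0.076) and IRF9 (0.47 ± 0.082) also rose. The most widely used markers of an interferon response were not called. IFIT1 read 2.23 untreated and 2.37 treated, MX1 3.38 and 3.37, OAS1 4.55 and 4.38, ISG15 5.36 and 5.14 and IFI27 4.59 and 4.56. The interferon-stimulated response element was found in 68.2% of this list's promoter windows and in 3.04% of all windows, but in 3.41% of the windows of raised genes as a whole.

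In antigen presentation, TAPBP, which loads peptides onto MHC class I, read 8.47, 8.43 and 8.42 untreated and 9.14, 9.16 and 9.18 treated (0.72 ± 0.078, adjusted p = 0.000166). TAP1, a subunit of the peptide transporter, rose by 0.77 ± 0.16, the trimming peptidase ERAP1 by 0.69 ± 0.095 and the class I light chain B2M by 0.39 ± 0.086. PSMB9, an immunoproteasome subunit, was not called (0.23 ± 0.17, adjusted p = 0.425). The count of 7 was the same with any single array left out. Among 20 nucleic acid sensors 4 rose, but 2 without treated replicate 2 or untreated replicate 1 and 1 without any other single array. Quantile normalization gave 2 and median centring 1. The most strongly raised of them was IFI16, a DNA sensor, at 3.48, 3.6 and 3.59 untreated and 4.58, 4.68 and 5.20 treated (1.26 ± 0.17, adjusted p = 0.00051). The RNA sensors RIGI (3.64, 3.69) and IFIH1 (2.38, 2.49) were not called.

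NF-kB targets and TNF family genes gave 15 raised and 2 lowered of 48 (median 0.10). TNFRSF9, a costimulatory receptor of lymphocytes (4-1BB), read 4.63, 4.55 and 4.36 untreated and 6.46, 6.66 and 6.57 treated, 4.15-fold (2.05 ± 0.23, adjusted p = 0.000198). The chemokine gene CCL5 read 4.64, 4.51 and 4.25 and then 5.51, 5.43 and 5.62 (1.05 ± 0.10, adjusted p = 9.56e-05). TNFAIP3, the feedback inhibitor A20, read 6.40, 6.44 and 6.51 and then 7.22, 7.15 and 7.20 (0.74 ± 0.067, adjusted p = 5.45e-05). All 3 were clearly separated between the groups. The inhibitor NFKBIA (0.64 ± 0.08), the subunit NFKB2 (0.83 ± 0.11), the cytokine IL18 (at least 1.36-fold from background) and the chemokine CXCL8 (0.80 ± 0.088) rose as well. The death receptor TNFRSF10A fell by 0.32 on the log2 scale, a call lost with any single array left out (adjusted p up to 0.139). The chemokine CCL4 was the other lowered call, with both group means under background. Median centring gave 4 lowered. Of 26 complement genes 3 rose, a share of 11.5% that lies near that of all genes, with a list median of 0.024 that became -0.03 under median centring. C3, the central protein of the cascade, went from 5.01, 4.48 and 4.73 to 6.62, 6.56 and 6.84 (1.93 ± 0.33, adjusted p = 0.00238). C5 rose from background (at least 1.72-fold), and the complement receptor CR2 rose by 0.83 ± 0.086.

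Genes of the erythroid and megakaryocytic lineages rose in part. In the erythroid list, 13 of 40 members rose and 2 fell (median 0.06). SLC4A1, the anion exchanger band 3, read 6.33, 6.32 and 6.40 untreated and 8.08, 8.12 and 8.14 treated, 3.4-fold (1.77 ± 0.50, adjusted p = 0.033). AHSP, the chaperone of alpha globin, read 5.74, 6.24 and 6.28 and then 7.43, 7.28 and 7.72 (1.39 ± 0.34, adjusted p = 0.0158). EPB42, a protein of the red cell membrane skeleton, read 5.96, 5.98 and 6.09 and then 7.16, 7.13 and 7.02 (1.09 ± 0.24, adjusted p = 0.00897). The groups did not overlap in these genes. The SE comes from the spread of all 12 arrays, and for SLC4A1 the adjusted p was 2.26e-05 with the 6 KA arrays alone, but in the 12-array fit the call was lost whichever KA array was left out (adjusted p up to 0.089). The same held for ALAS2, the first enzyme of haem synthesis (1.01 ± 0.31, adjusted p from 0.000147 to 0.118 over the alternatives), and AHSP lost its call without treated replicate 3 or untreated replicate 1. Of the globin genes that were not called, HBE1 read 12.72 and 12.73, HBZ 11.66 and 11.60, and HBB 5.22 and 4.91. The erythroid factors GATA1 (0.20 ± 0.077) and KLF1 (0.04 ± 0.08) were not called, and HEMGN, a nuclear protein of blood cells, fell by 0.50 on the log2 scale. The count of raised erythroid genes was 6 to 11 with single arrays left out, lowest without untreated replicate 1, with 7 without untreated replicate 2 and 8 without treated replicate 1, and the lowered count was 1 without any array but untreated replicate 1 and 4 under median centring.

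Of 31 megakaryocyte and platelet genes 9 rose and 1 fell (median 0.10). Both chains of the platelet fibrinogen receptor rose: ITGA2B from 6.10, 6.01 and 6.00 to 7.45, 7.49 and 7.63 (1.49 ± 0.094, adjusted p = 9.63e-06) and ITGB3 from 4.62, 4.66 and 4.76 to 6.29, 6.11 and 6.19 (1.52 ± 0.24, adjusted p = 0.00135). The gap between the groups was 1.35 in ITGA2B and 1.35 in ITGB3. CD226, an adhesion receptor, rose by 1.35 ± 0.21 and the ATP receptor P2RX1 by 0.85 ± 0.11. The platelet chemokine PF4 (3.66, 3.62) and the lineage factors FLI1 (3.20, 3.10) and RUNX1 (8.07, 8.18) were not called. Myeloid and monocyte genes gave 2 raised of 32, the bacteriolytic enzyme LYZ (7.05, 7.15 and 7.42 untreated, 8.91, 8.93 and 9.09 treated, adjusted p = 0.00457) and the actin-binding protein AIF1 (0.87 ± 0.15), while MPO (4.12, 3.98) and CSF1R (4.28, 4.49) were not called. Among markers of unrelated cells none of 17 lymphoid and none of 11 epithelial genes passed (2 and 1 were higher at an unadjusted limma p under 0.05, and quantile normalization called 2 lymphoid genes raised), and 1 of 14 fibroblast and endothelial genes did (COL1A1, 0.32 ± 0.077, not called without treated replicate 3 or untreated replicate 2, adjusted p up to 0.0628). The log2 levels of the lymphoid genes summed to 73.49 to 76.83 on untreated and 73.55 to 76.44 on treated arrays, those of the epithelial genes to 71.36 to 72.15 and 70.99 to 71.7, and those of the fibroblast and endothelial genes to 55.7 to 58.32 and 56.31 to 57.3. For myeloid genes the sums were 144.48 to 148.56 untreated and 148.43 to 150.86 treated. For erythroid genes they were 319.71 to 321.79 untreated and 329.02 to 330.23 treated, and for megakaryocyte genes 160.23 to 162.03 and 168.08 to 169.61. The part of such cells in the other results was not tested. In these bulk samples more cells of a type and more RNA per cell cannot be told apart.

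The pump behind the resistance did not pass the test. ABCB1 read 11.22, 11.17 and 11.26 on the untreated arrays and 11.32, 11.36 and 11.41 on the treated arrays. The treated arrays were all slightly higher, by 0.15 ± 0.15 (adjusted p = 0.567, 95% interval -0.18 to 0.47). The SE, p and interval rest on the spread shared with the KS arrays, and ABCB1 lay at background in untreated KS. They are therefore no measure of the spread of ABCB1 in KA. Among the KA arrays its standard deviation was 0.044 untreated and 0.041 treated. Over all alternatives, the KA arrays alone among them, the adjusted p of ABCB1 ranged from 0.166 to 0.724. ABCC1, another anthracycline pump, read 8.47, 8.48 and 8.54 and then 8.51, 8.45 and 8.37 (-0.052 ± 0.069, adjusted p = 0.671). Of 29 efflux transporters 7 rose and 1 fell, with a median of 0.018 that turned to -0.03 under median centring. ABCB4, a phospholipid transporter that is the neighbour and close relative of ABCB1, read 5.10, 4.91 and 4.89 and then 6.21, 6.45 and 6.44, 2.63-fold (1.40 ± 0.12, adjusted p = 5.45e-05). ABCG2, a pump of many cytostatics, rose from background (3.02, 3.43 and 3.17) to 3.64, 3.65 and 3.69, at least 1.2-fold (adjusted p = 0.0102). SLC22A4, an organic cation carrier, fell by 0.37 on the log2 scale. Single arrays lowered the count of raised transporters to 3 without treated replicate 2 and 4 without untreated replicate 1, and without treated replicate 3 a further transporter was called lowered, giving 2.

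Other genes of the ABCB1 region of 7q21 changed around it. Of 33 measured neighbours 10 rose and 1 fell, with a median of 0.11, and on chromosome 7 as a whole 12% of 833 genes rose. RUNDC3B, which lies next to ABCB1, read 4.85, 4.53 and 3.91 untreated and 6.13, 5.75 and 6.11 treated (1.56 ± 0.22, adjusted p = 0.000798), with no overlap although the untreated arrays were widely spread. CASD1, an enzyme that acetylates sialic acid, rose by 0.57 ± 0.082, and CROT, a peroxisomal acyltransferase, by 0.53 ± 0.082. CYP51A1, a sterol demethylase, was the 1 that fell (-0.38 ± 0.072).

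Genes on the drugs' own routes were called in both directions. Raised were 6.25% of the methylation machinery, 8.33% of uptake and deoxynucleotide genes and 10% of anthracycline genes, beside 9.66% of all genes. Lowered were 6.25%, 12.5% and 5% of these lists, beside 4.96% of all genes. None of the DNA methyltransferases was called: DNMT1 read 9.33, 9.31 and 9.36 untreated and 9.27, 9.25 and 9.16 treated (adjusted p = 0.281), DNMT3A changed by 0.17 ± 0.10 and DNMT3B by -0.024 ± 0.082. The 95% intervals of the change were -0.25 to 0.026 for DNMT1 and -0.20 to 0.15 for DNMT3B, so larger changes in either message lie outside the intervals. Of 32 genes of the methylation machinery 2 rose and 2 fell, among them UHRF1, which brings DNMT1 to copied DNA (-0.30 ± 0.082, adjusted p = 0.0262), whose call was lost without treated replicate 3 or any 1 untreated array (adjusted p up to 0.11), and MBD3, a subunit of the NuRD complex (-0.34 ± 0.072). The raised calls of this list did not hold under median centring or with single arrays left out: none was called when centred or without treated replicates 1 or 2 or untreated replicates 1 or 2, and 1 without treated replicate 3 or untreated replicate 3. DCK, which activates decitabine (7.11 untreated, 7.09 treated), and CDA, which deaminates it (4.26, 4.14), were not called. Of 24 uptake and deoxynucleotide genes 2 rose and 3 fell, led by the falls of TYMS, of the dCTP-hydrolysing enzyme DCTPP1 (-0.37 ± 0.075) and of the nucleoside carrier SLC29A2 (-0.32 ± 0.066), and the raised count was 0 under median centring and 0 or 1 with any array left out. Of 20 genes of anthracycline targets and metabolism 2 rose and 1 fell, with a median of 0.029 that turned to -0.02 under median centring. With any array left out the raised count was 1 or 2 and the lowered count 0 or 1. Among these genes, topoisomerase TOP2A read 9.75, 9.81 and 9.86 untreated and 10.31, 10.18 and 10.10 treated (0.39 ± 0.077, adjusted p = 0.00548), and TOP2B was not called (-0.059 ± 0.10).

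Survival and growth control genes moved in both directions. Of 28 genes known as p53 targets 6 rose and 1 fell (median 0.04, which became -0.0067 under median centring). K562 is a p53-deficient line, and what moved these genes was not tested. TP53INP1, a stress protein of apoptosis and autophagy, read 5.39, 5.56 and 5.66 untreated and 6.71, 6.53 and 6.81 treated (1.15 ± 0.23, adjusted p = 0.00559). The gap between its groups was 0.87. The raised count was 3 without untreated replicate 1, and the 1 lowered call was lost without treated replicates 1 or 3 or untreated replicates 1 or 2. The cyclin kinase inhibitor CDKN1A rose by 0.26 ± 0.081 (adjusted p = 0.0443), a call lost under quantile normalization, median centring and every omission of 1 array except treated replicate 1 (adjusted p up to 0.164). Of 34 BCL2 family and apoptosis genes 3 rose and 1 fell, 8.82% and 2.94%, beside 9.66% and 4.96% of all genes. Their median of 0.034 turned to -0.0157 under median centring. With single arrays left out 1 to 3 rose, and 0 or 1 fell. In this list BCL2L11, the death activator BIM, read 6.38, 6.28 and 6.41 and then 7.01, 6.99 and 6.92 (0.62 ± 0.077, adjusted p = 0.000386), and neither BCL2 (4.46, 4.24) nor BCL2L1 (9.82, 9.72) was called. Of 34 AP-1, EGR and ERK feedback genes 1 rose and 5 fell (median -0.07), led by the ETS factor ETV1 (-0.69 ± 0.13), while FOS (6.36, 6.29) and EGR1 (9.09, 8.84) were not called. MYC, a driver of growth, fell by 0.25 on the log2 scale (adjusted p = 0.0245), a call lost under quantile normalization and without treated replicates 2 and 3 or untreated replicates 1 and 2 (adjusted p up to 0.102). The count of lowered genes in the AP-1 list was 8 after quantile normalization or median centring, 3 without treated replicate 1 or untreated replicate 1, 2 without untreated replicate 3 and 1 without any other array, and the 1 raised call was lost without any array but untreated replicate 1.

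Several gene families held a few strong risers each. Among 29 S100 proteins and annexins 7 rose and none fell, with a median of 0.017 that turned to -0.03 under median centring. The calcium-binding protein S100P went from 5.63, 5.55 and 5.58 to 7.25, 7.56 and 7.68 (1.91 ± 0.15, adjusted p = 2.25e-05), ANXA3 from 5.61, 5.90 and 5.98 to 7.11, 7.17 and 7.36 (1.38 ± 0.12) and ANXA4 from 5.45, 5.59 and 5.70 to 6.69, 6.60 and 6.66 (1.07 ± 0.11). Annexins bind membranes in the presence of calcium, and the groups were separated by 1.62, 1.14 and 0.90. CALB1, a calcium buffer known from neurons and kidney and outside that list, rose from 7.03, 7.12 and 7.09 to 8.94, 9.03 and 8.96 (1.90 ± 0.12, adjusted p = 9.63e-06). Of 38 cytoskeleton and adhesion genes 9 rose and none fell (median 0.11), among them the tubulin TUBB2B (1.2 ± 0.16), the selectin ligand SELPLG (0.92 ± 0.089) and the hyaluronan receptor CD44 (0.66 ± 0.077).

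Antioxidant and glutathione genes moved in both directions, 6 up and 4 down of 45, shares of 13.3% and 8.89% against 9.66% and 4.96% of all genes (median 0.016, which turned negative under quantile normalization and median centring). The secreted peroxidase GPX3 went from 4.19, 3.97 and 4.17 to 5.82, 5.87 and 6.02, 3.47-fold (1.79 ± 0.25, adjusted p = 0.000675), and the glutathione transferases GSTM3 and GSTM2 rose by 1.02 ± 0.16 and 0.65 ± 0.14. The peroxiredoxins PRDX4, PRDX3 and PRDX1 fell by 0.39, 0.34 and 0.26 on the log2 scale, with adjusted p up to 0.051 for PRDX3 (without untreated replicate 1) and up to 0.0583 for PRDX1 (without treated replicate 2). GSTP1 was at 11.53 and 11.56. Imprinted genes, of which 1 parental copy is silenced by methylation, gave 5 raised and none lowered of 26 (median 0.07). The Ras-like DIRAS3 read 5.41, 5.45 and 5.45 untreated and 6.29, 6.29 and 6.30 treated (0.85 ± 0.14, adjusted p = 0.00195), and MEST, a hydrolase-like protein, rose by 0.73 ± 0.12. The imprinted count was 2 without treated replicate 3 and 3 without treated replicate 1 or untreated replicates 1 and 2. Of 480 ZNF zinc finger genes 52 rose and 11 fell, 10.8% and 2.29%, beside 9.66% and 4.96% of all genes, with a median of 0.04 that turned to -0.0072 under median centring. The counts were 42 raised and 28 lowered after quantile normalization and 34 and 19 after median centring. The raised count was 29 without treated replicates 1 or 3, 27 without untreated replicate 1 and 32 without untreated replicate 2, and the lowered count was 2 to 7 with any array left out.

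Many small RNA genes lay at or under background. Above it in at least 1 KA group were 67 of 115 C/D box RNAs, 72 of 77 H/ACA and Cajal body RNAs and 72 of 173 microRNA genes. For the others the lack of a call does not show a lack of response. Of 115 C/D box small nucleolar RNAs, guides of RNA methylation, none rose and 12 fell (median -0.04). SNORD15A read 7.92, 8.11 and 7.94 untreated and 7.05, 6.96 and 7.14 treated (-0.94 ± 0.094, adjusted p = 0.000102), and SNORD43 fell by 0.69 on the log2 scale. The count was 4 without treated replicate 2 and without untreated replicates 2 and 3. The variant U1 genes RNVU1-3 and RNVU1-4 (-0.97 and -0.96) were among the 15 largest falls, and as they are near copies, which of them gave the signal is uncertain. Of 77 H/ACA and Cajal body small RNAs, guides of pseudouridylation and their relatives, 2 rose and 2 fell (median 0.08), and none rose under median centring. Of 173 microRNA genes 4 rose and 5 fell. The arrays read these loci in total RNA without separating precursor from mature forms, and the raised count dropped to 1 without treated replicate 2 or untreated replicate 1 and to 2 without treated replicate 3 or untreated replicate 2 or under median centring. The lowered count dropped to 2 without treated replicate 3 and to 3 without untreated replicates 1 or 3.

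KA and KS answered decitabine in the same direction for most genes called in KA. The 2 comparisons share no arrays. Their calls rest on the same spread, that of all 12 arrays, so the calls in the 2 lines are not independent. Over all 18417 genes, 2685 (14.6%) were raised and 2900 (15.7%) lowered in KS, which is the background for every count of KS calls. Of the 1780 genes raised in KA, 1138 were also raised in KS, 602 were not called there and 40 were lowered. Of the 914 lowered in KA, 649 were lowered in KS, 253 were not called and 12 were raised. Across genes the changes correlated at 0.62 (0.81 over the genes called in KA), a description over genes that share arrays and are not independent replicates. Of the 86 genes raised by at least 1 in KA, 75 were also raised in KS. The responses were compared by the signed difference between the KA and KS changes in the same fit. A higher response in KA thus means a change further upwards, which can be a smaller fall, and is no measure of strength. It was called higher in KA for 847 genes (4.6%) and lower for 394 (2.14%). Without the third untreated KS array these counts were 1300 and 749, and without the first they were 364 and 200. Leaving out treated KA replicates 2 or 3, untreated KA replicates 1 or 2, or treated KS replicates 2 or 3 gave 411 to 525 higher and 218 to 262 lower, and without treated KA replicate 1 the higher count was 507. Maintenance adriamycin is given for KA only, so in every difference between the responses the line and that drug cannot be told apart.

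Among germline genes no difference in response between the lines was called. Of the 44 genes none passed in limma, while 2 were higher and 0 lower in KA at an unadjusted p under 0.05, and 17 rose in KS. MAEL (2.23 in KS), GCNA (2.77) and HORMAD1 (3.01) also rose in KS. For HORMAD1 the difference was -0.30 ± 0.59 (adjusted p = 0.808), an interval too wide to call the responses equal. Without the third untreated KS array 1 germline gene was higher and 2 were lower in KA.

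Several stress and amino acid lists held genes with a higher response in KA. The response was higher in KA for 11 of 19 tRNA synthetases, 9 of 18 amino acid transporters, 10 of 25 ATF4 effectors, 7 of 17 serine and one-carbon enzymes and 13 of 45 endoplasmic reticulum genes, and lower for none in these 5 lists. Without the third untreated KS array the counts were 13, 9, 10, 8 and 14. In the same order, 15, 9, 8, 9 and 7 members were lowered in KS, with median changes there of -0.35, -0.30, -0.033, -0.27 and 0.023. In KA 3, 7, 9, 4 and 25 members were raised, so a higher response was in part a fall in KS. VARS1 changed by -0.36 in KA and -0.93 in KS and was still called higher. PSAT1, an enzyme of serine synthesis, changed by 0.07 in KA and -1.33 in KS (difference 1.40 ± 0.14, adjusted p = 0.000821). The cystine carrier SLC7A11 changed by 0.076 in KA and -1.07 in KS (adjusted p of the difference = 0.00435). ATF5 changed by 0.0033 in KS and by 1.55 in KA (difference 1.55 ± 0.15, adjusted p = 0.000821).

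Differences were also called for single genes and in further lists. ABCB4 and RUNDC3B, both next to ABCB1, changed by -0.085 and -0.17 in KS against 1.40 and 1.56 in KA (adjusted p of the differences = 0.00194 and 0.00926). EGF, a growth factor, changed by -0.0006 in KS and rose from 4.45, 4.32 and 4.57 to 5.83, 5.86 and 6.40 in KA (difference 1.58 ± 0.24, adjusted p = 0.00394). IL20RB, a cytokine receptor chain, rose by 1.72 in KA and changed by 0.40 in KS (adjusted p = 0.0184). Of 34 AP-1, EGR and ERK feedback genes 12 had a higher response in KA and 2 a lower one (14 and 2 without the third untreated KS array), with 20 lowered in KS: FOS changed by -1.73 in KS and -0.064 in KA, and EGR1 by -2.07 and -0.26. Of 57 replication-dependent histone genes the signed change was higher in KA for 9 and lower for 1 (15 and 2 without the third untreated KS array). In KS 40 of them were lowered, with a median change of -0.77 there against -0.43 in KA. H4C2, called higher, changed by -0.76 in KA and -1.96 in KS, a smaller fall in KA. Erythroid genes differed in the other direction, with 10 of 40 lower in KA and none higher (17 and none without the third untreated KS array). Among them HBZ changed by -0.054 in KA and 0.47 in KS (adjusted p = 0.0139). TXNIP and ARRDC4, related arrestin-fold proteins that are regulated by glucose, changed by -0.88 and -0.46 in KA and by 0.14 and 0.95 in KS (adjusted p of the differences = 0.000821 and 0.00221). The TXNIP difference was called with any single array left out.

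**Figure D5:**
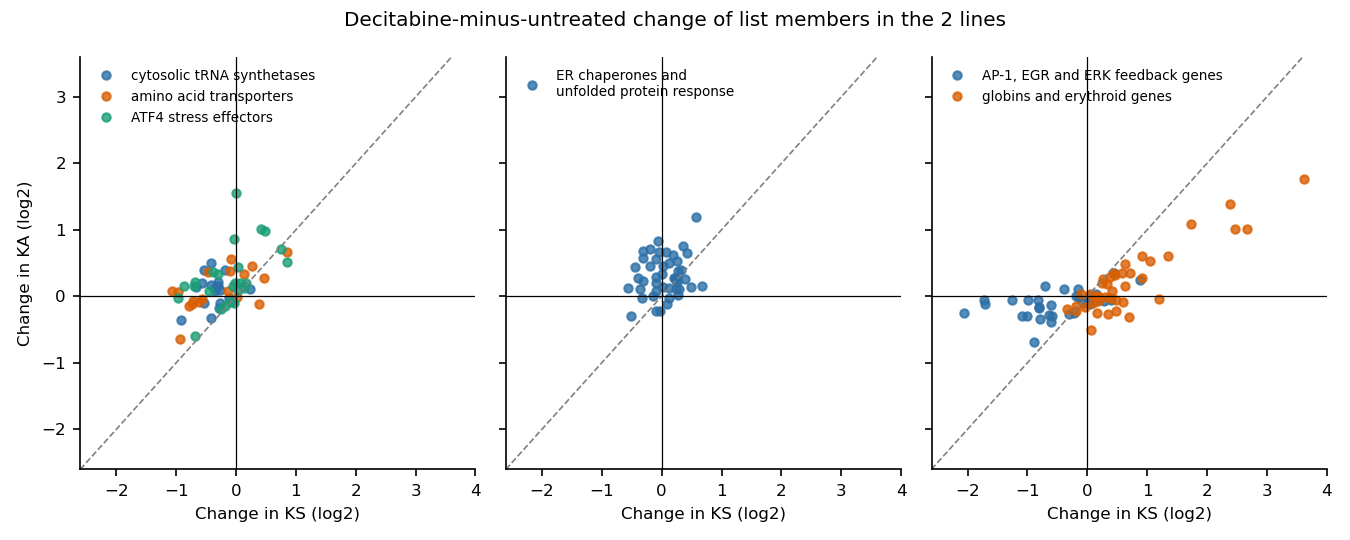
Change with decitabine in KA (log2, vertical axis) against the change in KS (log2, horizontal axis) for the members of 6 gene lists in 3 panels, each point a gene, with the line of equal change dashed. The stress and amino acid lists lie largely above the dashed line, and in the right panel the AP-1 and ERK genes spread to the left along a KA change near 0 while the erythroid genes with large changes lie below the line.

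Clusters without exactly 1 gene symbol were tested apart. Of 13837 such clusters 66 were raised and 58 lowered, 11 and 8 of them by at least 1. They carry no gene name here and are not described further.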

How the data were processed

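Total RNA of 12 K562 samples was labelled as biotin cRNA and read on Affymetrix gene arrays, per the labels' protocols. The values used were log2 intensities of 33297 transcript clusters as deposited by the authors in the series table. Background correction and normalization are not given in the sources used here. Of the clusters, 19460 carry 1 gene symbol, 1754 several and 12083 none. The brightest cluster stood for a gene with several, which left 18417 genes, 16902 of them protein-coding in RefSeq.

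Group means of the 4 groups were fitted to all 12 arrays with limma 3.58.1 in R 4.3.3, without covariates. SEs and p-values use the spread shared by the 4 groups, and p-values were adjusted over all genes by Benjamini-Hochberg, with a threshold of 0.05. The fit was tested on simulated data. No adjustment was made for batch, which the labels do not record per array. None was made for maintenance adriamycin, which is given for every KA array and for no KS array. Tables and plots used Python 3.11.15, pandas 2.3.3 and matplotlib 3.10.9.

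The genes and lists described were chosen with earlier results of these data known, and lists carry counts and medians only. Named genes were the 15 largest rises and falls with separated arrays, up to 5 called and 3 uncalled well-known members of each list, the 8 largest differences from KS in each direction, and a set of transporters, methyltransferases and topoisomerases. A further 24 genes, such as TDRD9, EIF2AK3, IRF1 and the genes holding the endoplasmic reticulum stress element, were named after their values were seen, and the TATAA and single CCACG searches were also added then. Others, such as HEMGN, CEBPG, HERPUD1 and CRYAB, were named for their difference from KS and belong to neither set. Motifs were searched on both strands, and matches of different motifs may overlap. Same-numbered arrays of the KA groups correlated, as deviations from group means, at -0.126, -0.014 and 0.126, so the numbers were not treated as pairs. Alternatives were the 6 KA arrays alone, a replicate block, quantile normalization, median centring, dim genes left out, the mean over clusters, a variance trend and each array left out. For calls in KA, only KA arrays were left out singly.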

Additional observations from a re-analysis of the deposited data

Results flagged for a closer look

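The difference between the change in KA and the change in KS was tested in the 12-array fit (limma, Benjamini-Hochberg). The genes given here are a chosen part of those whose responses differed between the lines, and not every list member that differed. Each value is the change in KA minus the change in KS on the log2 scale. A positive value means a change further upwards in KA, which can be a smaller fall. All of them also differed without the third untreated KS array. Unless a count is given, the difference was called with each of the 12 arrays left out in turn. In SAMD9, LXN, MIR15B, MIR32 and SH2D1B at least 1 group mean lies at or under background, so their values are no measure of the size of the difference, and ATF4 has a dimmer transcript cluster whose value in KA had the opposite sign.

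Among stress and amino acid genes the values were 0.91 for ATF4, 1.55 for ATF5, 0.65 for ASNS, 0.76 for CEBPG and 0.9 for INHBE. The serine and folate enzymes PHGDH, PSAT1 and ALDH1L2 gave 0.99, 1.4 and 0.83. The transporters SLC7A11, SLC7A5 and SLC3A2 gave 1.15, 1.03 and 0.83, and the tRNA synthetases WARS1, CARS1 and VARS1 gave 0.91, 0.93 and 0.57. In the endoplasmic reticulum the differences were 0.89 for HERPUD1, 0.91 for SDF2L1, 0.89 for SEL1L, 1.0 for DNAJB11 and 0.67 for HSPA5, the last called in 9 of 12 omissions.

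Immediate early and ERK feedback genes differed mainly through falls in KS: EGR1 by 1.81, FOS by 1.66, EREG by 1.6, SPRY4 by 1.2 and DUSP1 by 0.78. The mitotic genes CDC20, PLK1 and CCNB1 gave 0.5, 0.45 and 0.36, called in 12, 7 and 1 of 12 omissions. Of immune genes, ICAM1 gave 0.71, NFKBIA 0.55, SAMD9 0.78 (9 of 12), IFI16 0.93 (5 of 12) and PSMB9 -1.65.

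The chaperone CRYAB gave the largest value here, -2.56, with a change of -0.42 in KA and 2.14 in KS. Erythroid genes were lower in KA by value: HBD -1.25, HBZ -0.53, SLC25A37 -0.64, HEMGN -0.56 and RHCE -0.74 (2 of 12). Glycolytic and hypoxia genes were PDK1 at -0.84, ALDOC at -0.73 (7 of 12), PFKFB4 at -0.65, EGLN3 at -0.75, P4HA1 at -1.01 and ANGPTL4 at -0.68 (10 of 12). The arrestin-fold genes TXNIP and ARRDC4 gave -1.02 and -1.4.

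Next to ABCB1, RUNDC3B gave 1.74 and ABCB4 1.48. Other single genes were EGF at 1.58, IL20RB at 1.32, SH2D1B at 1.32 (8 of 12), H4C2 at 1.2, MIR15B at 1.57, MIR32 at 1.18 (3 of 12), DIRAS3 at 0.8 (2 of 12), S100P at 0.78 (4 of 12) and ITGA2B at 0.5 (3 of 12). Lower in KA were CD226 at -1.51, LXN at -1.2, SLFN14 at -1.14 (10 of 12), GCKR at -1.09 (2 of 12), STAR at -1.06, IDH2 at -1.05 and SNORD15A at -0.56 (6 of 12).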

How the results depend on the processing

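The naming rule and the further genes added after their values were seen gave 267 called genes, some of them not printed above. Genes named only for their difference from KS are not counted. Of the 267, 180 were called under all alternatives and 87 lost the call under at least 1, and none was reversed. The losses numbered 49 to 66 when single KA arrays were left out, 17 with the 6 KA arrays alone, 16 after quantile normalization and 25 after median centring. Of 64 uncalled named genes 7 were called under some alternative. Over all genes, the raised count was 1133 to 1422 with single KA arrays left out, the lowered count 479 to 580, and the count lowered by at least 1 was 2 to 9. Median centring gave 1409 lowered genes, among them all 914 of the uncentred values. The count with a higher response in KA was 364 to 1300, and that with a lower response 200 to 749, with single arrays left out, and a variance trend gave 1336 higher. The replicate numbers gave no sign of pairing, and the replicate block gave 1290 raised and 548 lowered genes in KA, 345 genes with a higher and 218 with a lower response than in KS, and cost 44 of the 267 calls. Among the list counts, the block lowered the raised counts of microRNA genes, nucleic acid sensors and replication genes to 1, of methylation machinery, uptake genes and H/ACA RNAs to 0, of imprinted genes to 3 and of efflux transporters to 4, and the lowered counts of replication genes and ZNF genes to 3, repair and microRNA genes to 2 and C/D box RNAs to 7. The variance trend raised the lowered counts of proteasome subunits to 13, oxidative phosphorylation to 14, hypoxia genes to 10, replication genes to 11, AP-1 genes to 8 and erythroid genes to 6, and the raised counts of complement genes and tRNA synthetases to 5 and of H/ACA RNAs to 4, and it called 3 endoplasmic reticulum genes lowered. With dim genes left out, 8 AP-1 and 4 erythroid genes were lowered. The 6 KA arrays alone gave 2 raised C/D box RNAs, 4 raised myeloid genes and 3 lowered microRNA genes. The causes of these shifts were not tested. Levels near background limit small changes, since 3.39 is the floor for folds and 82 raised genes started at or under it. With 3 arrays a group, a gene that was not called may still have changed.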
